A study of Mus musculus with 6 samples.

Results

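The macrophage genes examined here are *Csf1r*, *Ptprc*, *Cd68*, *Mrc1*, *Cx3cr1*, *Lyz2*, *C1qa*, *C1qb*, *C1qc* and *Tyrobp*. They were chosen by symbol as known macrophage genes, and each of the 10 matched a single locus among the 24402 loci of the deposited table. RNA came from whole lungs of C57BL/6 mouse embryos at 12.5 *dpc* (days post coitus). The control group held 3 wild-type (WT) libraries and the mutant group held 3 *Yap* mutant libraries of the genotype Yap-flox/flox; Shh-Cre/+ (Yap-mt). In the mutants Cre is produced from the *Shh* locus, so that *Yap* is removed in the lung epithelium and not in macrophages, and the Cre allele, which the controls lacked, also takes the place of a copy of *Shh*. The authors' table gives 1 FPKM value per genotype (fragments per kilobase of transcript per unit of sequencing depth, a level corrected for transcript length), which they summarised over the libraries. No spread between libraries and no depth can be had from it, so that differences are given as sizes without a test, an error or a p-value. Whether any of them exceeds the variation between embryos is unknown.

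Macrophages of the embryonic lung descend from yolk sac and fetal liver progenitors and enter the mesenchyme early in development. They are kept alive by signalling through the CSF1 receptor, clear dying cells by phagocytosis, and carry lysosomes rich in proteases and lysozyme. Many of them express the subunits of complement C1q, the recognition molecule of the classical complement pathway. In whole-lung RNA, fewer macrophages and less RNA per macrophage cannot be told apart.

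None (0) of the macrophage genes differed by 1.5-fold or more between the genotypes. The largest difference was that of *Lyz2*, which encodes a lysozyme, at 3.78 FPKM in WT and 5.23 FPKM in Yap-mt lungs. The complement genes *C1qa*, *C1qb* and *C1qc* and the receptor gene *Csf1r* were slightly higher in Yap-mt lungs. *Tyrobp*, *Cx3cr1*, *Mrc1*, *Cd68* and *Ptprc* lay within 5% of their WT level. Throughout, the log2 ratio is that of Yap-mt over WT with 0.1 FPKM added to each value. This understates the change of low genes, strongly so where a value is near 0. Summed over the 10 genes, the level was 68.61 FPKM in WT and 75.01 FPKM in Yap-mt lungs, a ratio of 1.09.

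**Figure D1:**
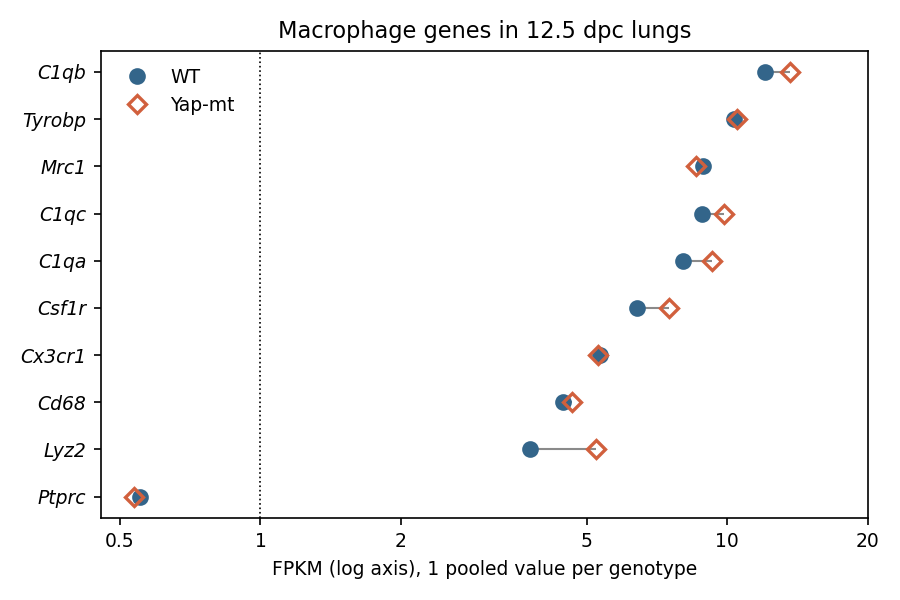
Levels of the 10 macrophage genes on a log axis of FPKM, with a filled circle for the pooled WT value and an open diamond for the pooled Yap-mt value of each gene; the dotted line marks 1 FPKM. The symbols of *Tyrobp* (10.3 and 10.5 FPKM) nearly coincide, while those of *Lyz2* (3.78 and 5.23 FPKM) lie farthest apart.

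Facts of the whole series bear on these values. *Yap1* had 76.1 FPKM in WT and 65.6 FPKM in Yap-mt lungs, in RNA that includes mesenchyme with intact *Yap*. *Shh*, of which the Cre allele replaces a copy, had 15.6 and 2.31 FPKM. The part of the replaced copy in this difference was not tested. Y-linked RNA was near 0 in WT lungs only: *Eif2s3y* had 0.0143 FPKM in WT and 16.5 FPKM in Yap-mt lungs, *Ddx3y* had 0.0163 and 10.2 FPKM, and *Xist*, from the inactive X chromosome of females, had 97.0 and 50.4 FPKM. The part of embryo sex in the macrophage values was not tested. Values over all loci summed to 538651 FPKM in WT and 522467 FPKM in Yap-mt lungs.

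By level, *C1qb* was the highest of the macrophage genes and *Tyrobp* the next in both genotypes. In WT lungs *Mrc1*, *C1qc*, *C1qa*, *Csf1r*, *Cx3cr1*, *Cd68* and *Lyz2* followed in this order, between 8.87 FPKM for *Mrc1* and 3.78 FPKM for *Lyz2*. *Ptprc* came last at 0.552 FPKM. In Yap-mt lungs the order was *C1qb*, *Tyrobp*, *C1qc*, *C1qa*, *Mrc1*, *Csf1r*, *Cx3cr1*, *Lyz2*, *Cd68* and *Ptprc*, so that 5 genes kept their rank. Which neighbours in these orders differ beyond the spread between libraries cannot be said. Among the 12716 loci whose 2 values averaged 1 FPKM or more, the WT level of *C1qb* stood at percentile 48.2 and that of *Lyz2* at percentile 20.3. The macrophage genes are therefore low to middling in whole-lung RNA.

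*Csf1r* encodes the receptor tyrosine kinase for CSF1 and is a defining gene of the lineage. It lies on chromosome 18 of mm10 (GRCm38), from 61096694 to 61131139 on the plus strand. Its level was 6.40 FPKM in WT and 7.51 FPKM in Yap-mt lungs, a log2 ratio of 0.23, and 24.4% of all loci compared had a larger ratio in either direction. A microRNA gene, *Mir6983*, lies within this locus on the same strand.

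*Cx3cr1*, the receptor for the membrane-bound chemokine fractalkine, lies on chromosome 9 from 120048683 to 120068296 on the minus strand. Its values of 5.35 FPKM in WT and 5.28 FPKM in Yap-mt lungs gave a log2 ratio of -0.02, and 90.7% of loci had a larger ratio in size. *Csf1r* and *Cx3cr1*, which are both surface receptors of embryonic macrophages, were thus not shifted by the same amount. The level of *Csf1r* was 1.20 times that of *Cx3cr1* in WT and 1.42 times in Yap-mt lungs.

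*Tyrobp* encodes a small adaptor with an ITAM (immunoreceptor tyrosine-based activation motif) that passes on signals of receptors such as TREM2. It lies on chromosome 7 from 30413788 to 30417579 on the plus strand and had 10.3 FPKM in WT and 10.5 FPKM in Yap-mt lungs, a log2 ratio of 0.02. *Fcer1g*, the ITAM adaptor of Fc receptors, had 8.58 and 8.79 FPKM. The ratio of *Tyrobp* to *Fcer1g* was 1.20 in both genotypes, so the levels of the 2 adaptors stood in the same proportion.

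Of the surface proteins, *Mrc1* encodes the mannose receptor, a lectin that takes up glycoproteins and is also made by some lymphatic and sinusoidal endothelial cells. It lies on chromosome 2 from 14229403 to 14332023 on the plus strand, with the microRNA gene *Mir511* inside it on the same strand. Its level was 8.87 FPKM in WT and 8.56 FPKM in Yap-mt lungs, a log2 ratio of -0.05. *Ptprc* encodes CD45, a receptor tyrosine phosphatase found on leukocytes. It lies on chromosome 1 from 138062859 to 138175305 on the minus strand and had only 0.552 FPKM in WT and 0.535 FPKM in Yap-mt lungs (log2 ratio -0.04). With a mean below 1 FPKM it was left out of the counts below, and the other 9 genes were kept. *C1qb* exceeded *Ptprc* by a factor of 21.8 in WT and 25.4 in Yap-mt lungs.

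The lysosomal genes *Cd68* and *Lyz2* were shifted by unequal amounts. *Cd68*, a heavily glycosylated membrane protein of macrophage lysosomes, lies on chromosome 11 from 69664211 to 69666116 on the minus strand. It had 4.44 FPKM in WT and 4.65 FPKM in Yap-mt lungs, a log2 ratio of 0.07, and 67.2% of loci had a larger ratio in size. *Lyz2*, the lysozyme of macrophages, lies on chromosome 10 from 117277541 to 117282272 on the minus strand. Its level in Yap-mt lungs was 139% of that in WT lungs, a log2 ratio of 0.46, and 10.7% of all loci had a larger ratio in either direction. Reads of *Lyz2* can be shared with its close relative *Lyz1*, the lysozyme of Paneth cells, so its value is uncertain to that extent. *Lyz1* itself was listed at 0.108 FPKM in WT and 0.456 FPKM in Yap-mt lungs. *Lyz2* was below *Cd68* in WT lungs, at a ratio of 0.851, and above it in Yap-mt lungs, at 1.12.

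*C1qa*, *C1qb* and *C1qc* encode the A, B and C chains that assemble in equal numbers into C1q. They are neighbours on the minus strand of chromosome 4, within 18.7 kb from 136880132 to 136898844, and no other locus of the table lies in this span. *C1qa* (136895916 to 136898844) had 8.02 FPKM in WT and 9.28 FPKM in Yap-mt lungs. *C1qb* (136880132 to 136886177) had 12.02 FPKM in WT and 13.6 FPKM in Yap-mt lungs. *C1qc* (136889802 to 136892914) had 8.84 FPKM in WT and 9.84 FPKM in Yap-mt lungs. The log2 ratios of the A, B and C chain genes were 0.21, 0.18 and 0.15, and they differed from one another by at most 0.06. The proportions of the chains were also close, with *C1qb* at 1.5 times *C1qa* in WT and 1.47 times in Yap-mt lungs, and *C1qc* at 1.10 and 1.06 times *C1qa*. Of the log2 ratios of all loci compared, 27.2%, 31.9% and 37.2% were larger in size than those of *C1qa*, *C1qb* and *C1qc*.

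The promoters of *C1qb* and *C1qc* are shown because these neighbouring genes had nearly the same ratio, that of *Lyz2* because its ratio was the largest, and that of *Mrc1* because its ratio was the lowest. Each line gives the 250 bases before the transcription start, 5′ to 3′ on the strand of the gene, from RefSeq on GRCm38.p6. Capitals mark 6-base matches, on either strand, to GAGGAA, the core bound by the macrophage factor PU.1, or to GGAAGT, an ETS family core with which it can overlap.
C1qb (chr4:136886201-136886450, minus strand): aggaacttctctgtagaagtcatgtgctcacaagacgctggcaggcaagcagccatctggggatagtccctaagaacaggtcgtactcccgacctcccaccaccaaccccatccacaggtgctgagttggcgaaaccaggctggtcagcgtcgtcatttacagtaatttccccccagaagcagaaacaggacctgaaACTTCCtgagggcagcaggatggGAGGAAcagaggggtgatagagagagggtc
C1qc (chr4:136892915-136893164, minus strand): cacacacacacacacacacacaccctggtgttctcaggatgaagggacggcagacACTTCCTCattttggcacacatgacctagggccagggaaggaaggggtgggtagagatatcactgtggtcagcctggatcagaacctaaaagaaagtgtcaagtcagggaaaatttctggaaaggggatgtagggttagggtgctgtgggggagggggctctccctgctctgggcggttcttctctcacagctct
Lyz2 (chr10:117282273-117282522, minus strand): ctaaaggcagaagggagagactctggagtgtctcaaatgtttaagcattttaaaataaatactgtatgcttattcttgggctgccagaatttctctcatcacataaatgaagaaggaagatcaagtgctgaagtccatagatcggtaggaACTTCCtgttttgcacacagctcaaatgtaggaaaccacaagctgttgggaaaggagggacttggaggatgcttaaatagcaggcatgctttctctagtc
Mrc1 (chr2:14229164-14229413, plus strand): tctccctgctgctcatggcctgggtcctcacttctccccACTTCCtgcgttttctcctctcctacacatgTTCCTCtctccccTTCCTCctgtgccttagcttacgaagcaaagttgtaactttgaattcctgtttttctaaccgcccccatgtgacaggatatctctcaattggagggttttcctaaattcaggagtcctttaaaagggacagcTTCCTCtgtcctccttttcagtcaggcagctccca

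In the promoter of *C1qc* both motifs were read from the same 8 bases, 195 to 188 bases before the start. In that of *C1qb* they lay apart, with the first base of the nearer match 30 bases before the start. Of the macrophage genes, 7 had a promoter in the table used, and 5 of these held GAGGAA, against 23.3% of 32851 mouse promoters of the same length. GGAAGT was also found in 5 of the 7, against 19.7% of promoters. *Ptprc* has 2 promoters in the table, whose windows overlap, and was counted where either held the motif, while the background counts each promoter. By promoter, the counts were 5 of 8 for the first motif and 6 of 8 for the second. GGAATG, the core bound by the TEAD partners of YAP, was in 0 of the 7, against 12.6% of promoters. The motifs were chosen with the sequences known, so these shares are descriptive and are no test against the background. These matches are letters in a short window. They do not show that a factor binds there, and their absence says nothing of binding elsewhere.

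Of the 9 macrophage genes with a mean of at least 1 FPKM, 0 were 1.5-fold or more higher and 0 were 1.5-fold or more lower in Yap-mt lungs. Over all 12716 loci, 4.44% were higher and 3.3% were lower by this measure, so a count of 0 among 9 genes is close to the background. Within 0.25 of 0 on the log2 scale lay 8 of the 9, against 77.8% of all loci. The log2 ratio was above 0 for 7 of the 9, against 48.2% of all loci, and the 2 below 0 were *Mrc1* and *Cx3cr1*, of which *Cx3cr1* stood above 0, at 0.03, when both columns were scaled to a common total. The median log2 ratio of the 9 genes was 0.15, where that of all loci compared was -0.01. For all loci, the log2 ratio at percentile 10 was -0.24 and at percentile 90 was 0.31, and *Lyz2* was the only macrophage gene of the 10 outside this range.

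**Figure D2:**
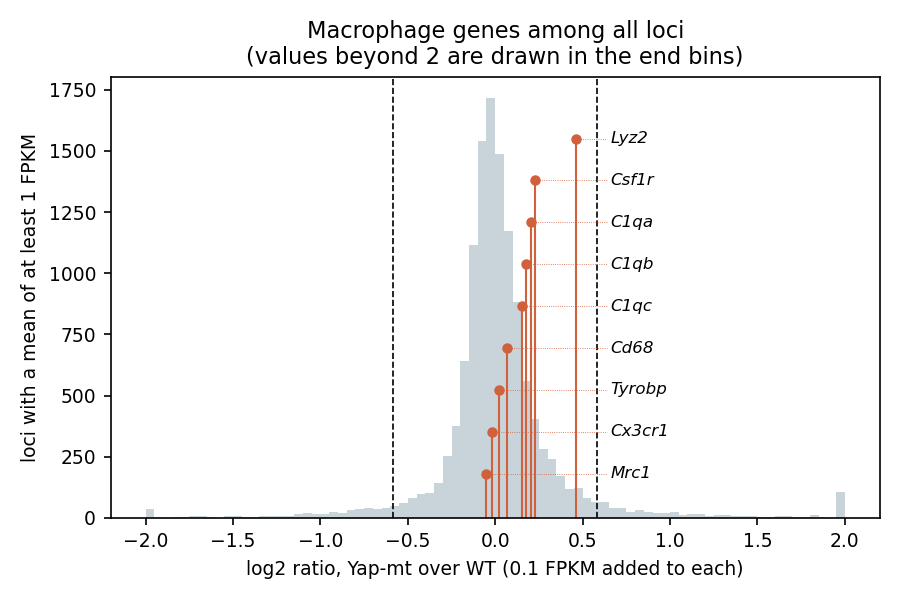
Histogram of the log2 ratio of Yap-mt over WT for all 12716 loci that averaged 1 FPKM or more (x axis, log2 ratio; y axis, number of loci), with a stem for each of the 9 macrophage genes that passed this minimum; the heights of the stems carry no value, and the dashed lines mark 1.5-fold. The stems run from *Mrc1* at -0.05 to *Lyz2* at 0.46, all between the dashed lines.

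Factors that act on macrophages from outside were examined next. The CSF1 receptor has 2 ligands. *Csf1* had 6.46 FPKM in WT and 5.94 FPKM in Yap-mt lungs, a log2 ratio of -0.12, and *Il34* had 0.0643 and 0.252 FPKM, both below 1 FPKM. The level of *Csf1* was 1.01 times that of its receptor in WT and 0.791 times in Yap-mt lungs. The fractalkine gene *Cx3cl1* had 1.02 and 1.35 FPKM. Of the 12 ligand and chemokine genes listed, 5 had a mean of at least 1 FPKM, and 0 of these 5 were past 1.5-fold, with a median log2 ratio of -0.12 that turned to 0.06 over all 12 with no minimum. *Cxcl12*, a chemokine of mesenchymal cells, had 46.3 FPKM in WT and 35.6 FPKM in Yap-mt lungs (log2 ratio -0.38). *Mif*, a broadly expressed cytokine, had 774.2 and 823.1 FPKM.

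Among transcription factors with a role in macrophages, 12 of the 13 listed had a locus and 10 of these a mean of at least 1 FPKM. Past 1.5-fold were 2, both higher in Yap-mt lungs, against 4.44% of all loci higher. *Cebpa*, a factor of myeloid cells that is also expressed in liver and lung epithelium, had 4.62 FPKM in WT and 15.3 FPKM in Yap-mt lungs, a log2 ratio of 1.71. *Nr1h3*, a sterol-sensing nuclear receptor that also acts in liver, had 2.02 and 3.21 FPKM (log2 ratio 0.64). Of 7 liver genes, 5 had a mean of at least 1 FPKM. Past 1.5-fold higher in Yap-mt lungs were 4 of these, against 4.44% of all loci. Among them were *Afp* at 5.42 and 22.3 FPKM, *Trf* at 4.92 and 19.2 FPKM and *Ttr* at 0.492 and 13.5 FPKM. *Ttr* passed the minimum only through its Yap-mt value. The defining liver gene *Alb* was not past 1.5-fold, at 1.28 and 1.14 FPKM. *Serpina1a* (0.0835 and 0.0206 FPKM) and *Ahsg* (0.139 and 0.153 FPKM) were near 0. The part of liver RNA in the values of *Cebpa* and *Nr1h3* was not tested. *Irf8*, which is more restricted to myeloid cells, had 2.56 and 2.79 FPKM. *Maf*, which is widely expressed in mesenchyme, had 27.4 FPKM in both genotypes, and *Id3* had 251.4 and 312.9 FPKM. The median log2 ratio of the 10 factors was 0.22.

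Of 28 surface receptors of macrophages outside the set, 10 had a mean of at least 1 FPKM. The log2 ratio was above 0 for 9 of these 10, against 48.2% of all loci, with a median of 0.16. *Adgre1*, which encodes the antigen F4/80 and was listed under its older symbol *Emr1*, had 1.99 FPKM in WT and 2.65 FPKM in Yap-mt lungs. Past 1.5-fold was only *Gpr34*, a lysophospholipid receptor, at 0.834 and 1.32 FPKM, against 4.44% of all loci past it higher. *Gpr34* passed the minimum only through its Yap-mt value. *Gpr34* lies on chromosome X, and the part of embryo sex in its ratio was not tested. *Stab1* and *Lyve1*, scavenger and hyaluronan receptors shared with endothelial cells, had the highest levels, at 13.4 and 15.2 FPKM and at 11.7 and 13.1 FPKM. *Trem2*, the receptor that pairs with TYROBP, had 1.97 and 1.98 FPKM.

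Of 14 secreted and cytosolic genes of macrophages, 10 had a mean of at least 1 FPKM, with a median log2 ratio of 0.13. *Apoe*, a lipid carrier made by macrophages and by liver, had 80.0 FPKM in WT and 177.5 FPKM in Yap-mt lungs, the largest ratio of this list (log2 ratio 1.15). The part of liver RNA in this value was not tested either. *Mpeg1*, a pore-forming protein of phagocytes, had 1.47 and 2.45 FPKM (log2 ratio 0.70). *Slc40a1*, the iron exporter ferroportin, was lower, at 9.21 and 5.48 FPKM (log2 ratio -0.74). *Pf4*, a chemokine of embryonic macrophages and platelets, had 17.1 and 16.9 FPKM. Over the transcription factors, receptors and secreted genes together, 30 of 54 loci passed the minimum. Of these 30, 5 were past 1.5-fold higher and 1 was past it lower, with a median log2 ratio of 0.16. Over all loci, 4.44% and 3.3% were past 1.5-fold higher and lower. The 5 include *Gpr34*, which passed the minimum only through its Yap-mt value.

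**Figure D3:**
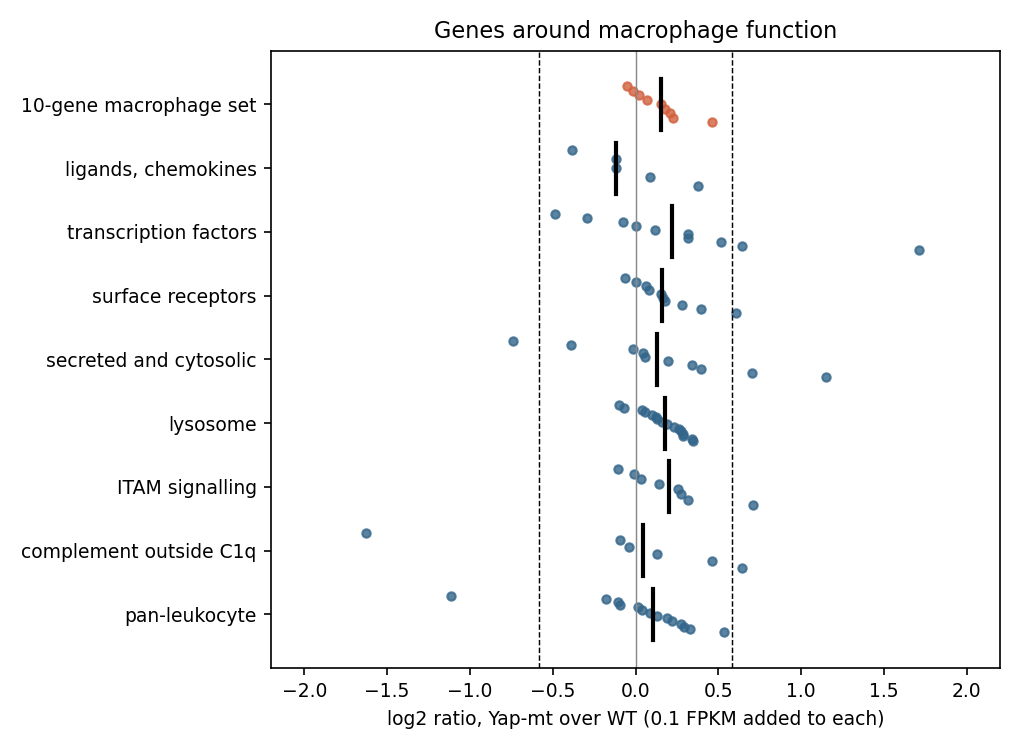
Log2 ratios of Yap-mt over WT (x axis) for loci that averaged 1 FPKM or more in the 10-gene macrophage set (9 points) and in 8 lists of related genes (rows); each point is a locus, its height within a row carries no value, the black bars are medians, and the dashed lines mark 1.5-fold. The medians run from -0.12 for ligands and chemokines (0.06 with no minimum) to 0.22 for transcription factors, and *Cd55* (-1.63) and *Cebpa* (1.71) are the farthest points.

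Lysosomal genes, which all cells use but which macrophages carry at high levels, had a median log2 ratio of 0.18 over 16 loci. The log2 ratio was above 0 for 14 of the 16, against 48.2% of all loci, and 0 of the 16 were past 1.5-fold higher, against 4.44% of all loci. The ratios ran from -0.10 to 0.35. *Cd63* had 212.3 FPKM in WT and 202.4 FPKM in Yap-mt lungs, and *Psap*, the precursor of the saposins, had 125.05 and 133.9 FPKM. *Ctss*, a cathepsin of antigen-presenting cells, had 4.60 and 5.59 FPKM.

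The kinases, phosphatases and adaptors downstream of ITAM receptors had a median log2 ratio of 0.20 over 8 loci. Past 1.5-fold was 1 of these, *Ptpn6*, a phosphatase of blood cells, at 2.31 FPKM in WT and 3.84 FPKM in Yap-mt lungs (log2 ratio 0.71). Over all loci, 4.44% were past 1.5-fold higher. *Syk*, the kinase recruited by TYROBP, had 2.40 and 2.93 FPKM, and *Lyn* had 8.05 and 7.48 FPKM.

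Complement genes other than C1q did not share a direction. Of 15 such loci 6 had a mean of at least 1 FPKM, with a median log2 ratio of 0.04 that turned to -0.067 with a minimum of 5 FPKM. The log2 ratio was above 0 for 3 of the 6 and below 0 for the other 3. *Cd55*, a membrane-bound inhibitor that epithelial cells also carry, was lower, at 9.01 FPKM in WT and 2.85 FPKM in Yap-mt lungs (log2 ratio -1.63). *Serping1*, the inhibitor of the proteases that join C1q, had 14.3 and 13.4 FPKM. Those proteases were low, with *C1ra* at 0.385 and 0.676 FPKM and *C1s1* (listed as *C1s*) at 0.236 and 0.233 FPKM. *Cfp* shares a locus with *Elk1* and *Uxt*, so its own level is uncertain. *C3*, on which the pathway converges, had 0.102 and 0.371 FPKM.

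Genes shared by leukocytes of many kinds had a median log2 ratio of 0.11 over 14 loci. *Cyba*, a subunit of the phagocyte oxidase, had 43.0 FPKM in WT and 50.02 FPKM in Yap-mt lungs, and *Arhgdib* had 22.0 and 26.6 FPKM. *Coro1a*, an actin-binding protein of leukocytes, had 8.49 and 8.74 FPKM. *Cd52*, a small surface glycoprotein, was lower, at 2.21 FPKM in WT and 0.965 FPKM in Yap-mt lungs (log2 ratio -1.12). It was the 1 locus of the 14 past 1.5-fold, against 3.3% of all loci lower and 4.44% higher. *Cd52* passed the minimum only through its WT value.

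Markers of other leukocytes were for the most part near 0. The T cell gene *Cd3e* was listed at 0 in both genotypes, and 11 of 12 lymphoid loci had a mean under 1 FPKM. The exception was *Lck*, a kinase of T cells, at 3.24 and 2.79 FPKM. Those of monocytes, *Ccr2* (0.103 and 0.221 FPKM) and *Ly6c2* (0.0324 and 0.0644 FPKM), were low as well. *Plac8* (12.9 and 6.12 FPKM) and *Fn1* (59.2 and 93.6 FPKM), also on that list, are expressed outside blood. The dendritic cell genes *Flt3* and *Itgax* were under 0.1 FPKM in both genotypes. *Zbtb46*, on the same list but also expressed by endothelium, had 5.58 and 5.72 FPKM.

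Of 10 granule and calgranulin genes of neutrophils, 3 had a mean of at least 1 FPKM. Past 1.5-fold lower in Yap-mt lungs were 2 of these, against 3.3% of all loci. *S100a8* had 4.38 FPKM in WT and 0.408 FPKM in Yap-mt lungs (log2 ratio -3.14), and its partner *S100a9* had 3.67 and 0.709 FPKM (log2 ratio -2.22). The third, *Prtn3*, a protease of granulocyte precursors, had 1.54 and 1.48 FPKM (log2 ratio -0.05), the same ratio as *Mrc1*. Below the minimum, *Ngp* had 0.909 and 0.0562 FPKM and *Camp* had 0.981 and 0.154 FPKM, while *Elane* was listed at 0 in both genotypes. *Prtn3* and *Elane* are listed with the same merged locus, so their values are uncertain. The median log2 ratio of -2.22 rests on 3 loci, and was -1.45 with 1 FPKM added in place of 0.1 and -0.76 over all 10 loci. *S100a8* and *S100a9* passed the minimum only through their WT values, so this median and the count of 2 depend on that choice of loci. The summed level of the list was 12.1 FPKM in WT and 3.14 FPKM in Yap-mt lungs, a ratio of 0.259, where that of the macrophage genes was 1.09. The difference between these ratios was not tested, since there is 1 value per genotype.

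Mast cell genes gave no single direction. *Cpa3*, a mast cell protease, had 1.43 FPKM in WT and 0.426 FPKM in Yap-mt lungs, *Mcpt4* was listed at 0 in both, and *Tpsb2* had 0.0189 and 0 FPKM. *Hdc*, the histamine-forming enzyme, had 0.489 and 64.1 FPKM, beside *Kit* at 8.35 and 14.1 FPKM. Platelet genes included *Ppbp* at 2.82 and 3.25 FPKM and *Itga2b* at 1.59 and 2.42 FPKM. *Gp1bb* was lower in Yap-mt lungs, at 19.8 and 14.0 FPKM (log2 ratio -0.50). It shares a locus with *Sept5*, so its own level is uncertain. Of genes enriched in microglia, *Tmem119* (23.9 and 22.0 FPKM) and *Olfml3* (33.1 and 35.9 FPKM) were well above *P2ry12* (0.684 and 0.996 FPKM) and *Sall1* (0.219 and 0.345 FPKM). *Tmem119* and *Olfml3* also exceeded *C1qb*, the highest of the macrophage genes, and which cells they come from was not tested. Of osteoclast genes, *Acp5* had 3.57 and 2.55 FPKM, *Ctsk* had 1.06 and 1.52 FPKM, and *Ocstamp* was listed at 0 in both genotypes.

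Marker genes of some other cell types differed between the genotypes by more than the macrophage genes. The median log2 ratio was -0.71 over 12 epithelial loci, 3.30 over 7 cardiac muscle loci and 1.94 over 5 liver loci. *Epcam* had 74.9 FPKM in WT and 55.6 FPKM in Yap-mt lungs, *Nkx2-1* had 61.9 and 35.9 FPKM, and the atrial gene *Myl7* had 39.3 and 305.9 FPKM. Endothelial genes had a median of 0.15 over 12 loci, close to that of the macrophage genes, with *Pecam1* at 29.6 and 33.9 FPKM and *Cdh5* at 36.3 and 39.9 FPKM. Erythroid genes had a median of 0.10 over 11 loci, mesenchymal genes 0.09 over 10 loci and mesothelial genes 0.31 over 4 loci, while that of neural genes was -0.51 over 6 loci. The summed level in Yap-mt over WT lungs was 1.08 for endothelial, 1.07 for erythroid, 1.01 for mesenchymal and 0.656 for epithelial genes, beside 1.09 for the macrophage genes. Fewer cells of these types and less RNA per cell cannot be told apart here either, and the part of these differences in the macrophage values was not tested.

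**Figure D4:**
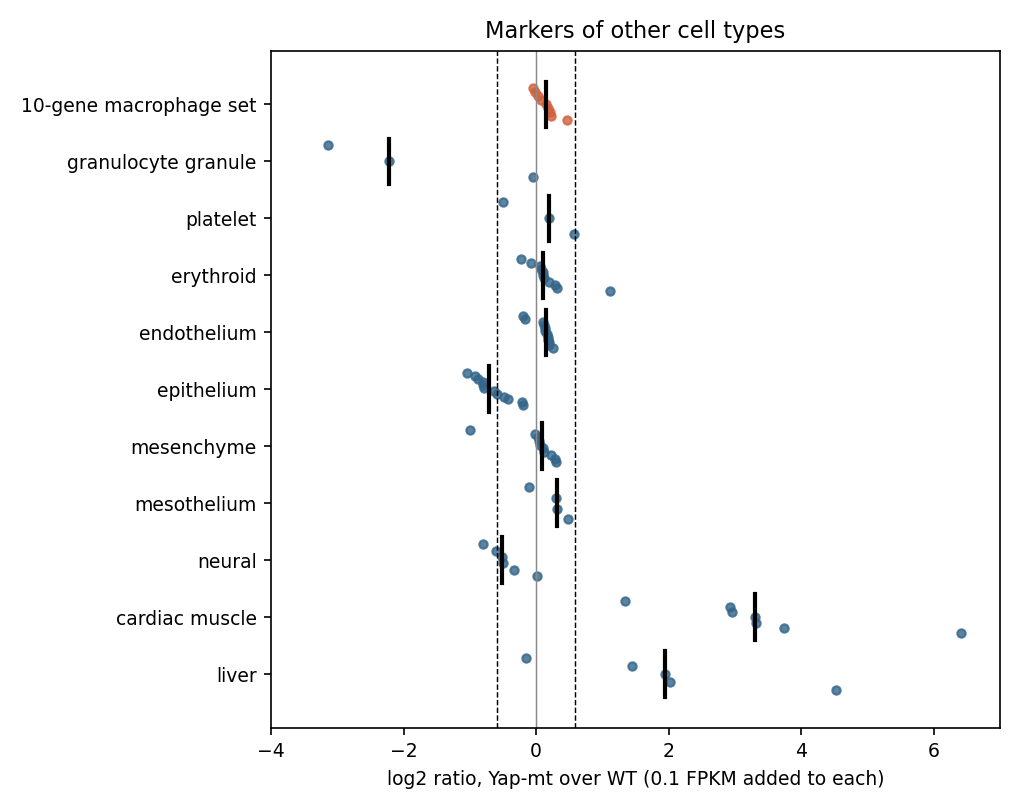
Log2 ratios of Yap-mt over WT (x axis) for loci that averaged 1 FPKM or more in the macrophage set (9 points) and in lists of marker genes of other cell types (rows); each point is a locus, its height within a row carries no value, the black bars are medians, and the dashed lines mark 1.5-fold. The median of the macrophage genes (0.15) lies beside that of endothelium (0.15), while those of granulocyte granule genes (-2.22 over 3 loci, and -0.76 with no minimum), cardiac muscle (3.30) and liver (1.94) lie far from 0.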

How the data were processed

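Whole-lung RNA of 3 WT and 3 Yap-mt embryonic lung samples was sequenced as strand-specific paired-end libraries, and the authors aligned and compared them on the Maverix platform. The submitters' processing notes name TopHat, Cuffdiff and mm10, with no versions. The FPKM values in the authors' deposited tables were read as such from their Cuffdiff layout, since no header names the unit. Each is 1 value per genotype, so depth and spread are unknown and no column belonged to other samples. The tables also hold the authors' own log2 fold changes and p-values, which were not used.

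The log2 ratio was computed with 0.1 FPKM added. Loci that averaged 1 FPKM or more were compared, and at least 1.5-fold in either direction was counted. Locus starts were written with 1 added. The second deposited table, of loci the authors list as changed, served only as an alternative source of values. The counting step was run on simulated data with planted 2-fold changes and little noise. Such changes pass 1.5-fold by design, so that run checks only the code and says nothing of the spread between libraries. The macrophage genes, the gene lists and the motifs were chosen with earlier results of these data or the sequences known. Named were the macrophage genes, the 2 highest loci and up to 3 loci past 1.5-fold in each direction of the other lists, and the defining markers of other cell types. *Irf8*, *Adgre1*, *Trem2*, *Ctss*, *Syk*, *Coro1a*, *Csf1*, *Il34*, *Cx3cl1*, *C1ra*, *C1s1*, *C3*, *Lyz1*, *Prtn3*, *Ngp*, *Camp*, *Elane*, *Serpina1a*, *Ahsg*, *Shh* and *Yap1* were named after their values were seen. Some genes of the cell-type lists that fall under the rule are left out, and some withheld items are not reported here. Medians are given for lists with at least 3 loci past the minimum. Python 3.11.15, numpy 2.4.6, pandas 2.3.3 and matplotlib 3.10.9 were used. The alternatives were a pseudocount of 0 or 1 FPKM, no minimum or one of 5 FPKM, a fold of 2 or a log2 ratio of 0.32, values scaled to a total of 1000000, median-centred ratios, and the second table.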

Additional observations from a re-analysis of the deposited data

How the results depend on the processing

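With 1 value per genotype, no library could be left out, and no paired analysis was possible because the tables hold no value per library. Of the 9 alternatives, 4 can change the log2 ratio of a macrophage gene (the 2 pseudocounts, scaling to a total and median-centring). Under these the ratio of each of the 10 genes moved by at most 0.08, and *Cx3cr1* was the 1 gene to change sign, between -0.02 and 0.03. The median of the macrophage genes ranged from 0.11 to 0.20. At a log2 threshold of 0.32, below that of 1.5-fold, 1 macrophage gene, *Lyz2*, was counted as higher. Over all loci, 565 were higher and 420 lower at 1.5-fold, 274 and 163 at 2-fold, 1225 and 865 at the log2 threshold of 0.32, 1553 and 1016 with no minimum, and 217 and 182 with a minimum of 5 FPKM.

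List medians that moved by more than 0.1 were those of granule genes (-2.37 with a pseudocount of 0, -1.45 with 1, and -0.76 with no minimum), epithelium (-0.60), liver (1.77) and neural genes (-0.32) with a pseudocount of 1, and, with no minimum, ligands (0.06, against -0.12), secreted genes (0.23), platelet genes (0.44), cardiac muscle (3.13) and liver (1.45). With a minimum of 5 FPKM complement outside C1q was at -0.067, against 0.04, leukocyte genes at 0.22 and microglial genes at 0.12, and with the second table cardiac muscle was at 2.92. The second table holds none (0) of the macrophage genes, and 25 of its 2395 loci differ from the first by more than 1%.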
